A study of Homo sapiens with 4 samples.

Results

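The solute carrier (SLC) genes expressed in wild-type and C1orf132-edited MCF12A cells were examined by the substrate class of the carriers they encode. Members were the rows whose symbol is SLC, a family number, the letter A and a member number, with a mean normalised value of at least 10 over the 4 libraries. Of 193 such symbols among the 16811 rows of the table, 122 reached this mean and 71 did not. A further 36 symbols that start with SLC have another form (for example *SLCO4A1*) and were not members. The members were chosen on their mean over all libraries, so their levels are a description. The last symbols below the cut-off were *SLC9A9* (9.75), *SLC29A4* (9.39) and *SLC24A1* (9.22), and the first above it were *SLC13A3* (10.2), *SLC46A3* (10.6) and *SLC2A5* (11.5). Of the members, 2 (*SLC9A7* and *SLC31A2*) had a mean under 10 in edited cells only and 4 (*SLC2A5*, *SLC5A2*, *SLC25A4* and *SLC19A1*) in wild-type cells only.

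Solute carriers are membrane proteins that move small molecules across the plasma membrane or organelle membranes, either down a gradient or coupled to the flow of sodium, protons or a counter-substrate. The number in the symbol names the family, and most families share a kind of substrate: SLC2 carries hexoses, SLC7 and SLC38 amino acids, SLC39 brings zinc into the cytosol, SLC30 takes it out, and SLC25 spans the inner mitochondrial membrane. In the mammary epithelium such carriers supply the glucose, amino acids, choline, phosphate and zinc that go into milk. By family, 7 members were placed in the hexose class, 16 in the amino acid class, 15 in the inorganic ion class and 14 in the zinc class. The nucleotide class (nucleosides, nucleobases and nucleotide sugars) had 8, the mitochondrial class 33 and the remaining families, called other, 29. Some metal carriers, such as the copper carriers *SLC31A1* and *SLC31A2*, counted as other and not as inorganic ion carriers.

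MCF12A cells derive from non-tumorigenic breast epithelium and are an established human line, although the labels call the source a breast cancer cell line. The wild-type group and the edited group had 2 libraries each, which the labels give as biological replicates. The edited group carries the genotype label C1orf132 KO. Its cells were made with Cas9 and a pair of guides that cut out the p2 distal promoter of *C1orf132*, the host gene of miR-29b2 and miR-29c, and they were grown from sorted single cells into colonies. The sources used here do not say whether the edited libraries come from 1 colony, so an effect of the deletion and a trait of a clone cannot be told apart. Both groups were grown in the same medium with horse serum, EGF, hydrocortisone, cholera toxin and insulin supplied in a zinc solution. *C1orf132* was not analysed here, so the groups rest on the labels.

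The members summed to 13052 and 12295 in the edited and to 11581 and 10273 in the wild-type libraries, between 0.711% and 0.788% of each library's total. The values carry no read numbers, so the depth of the libraries is unknown. Of 10 mammary epithelial markers, 6 fell and 1 (*KRT8*) rose in the edited line. Of the 9590 genes tested, 4.20% fell and 2.89% rose. The median over the 10 was -2.51 on the log2 scale, with summed levels of 4891 and 5684 in edited against 11221 and 20411 in wild-type cells. Of the 2 fibroblast markers in the table, which summed to between 18.3 and 111, *COL1A1* fell, with 3.19 and 5.58 in edited against 15.6 and 28.1 in wild-type replicates (adjusted p = 0.0420 from limma). *DCN* had 15.1 and 105 in edited against 7.42 and 1.09 in wild-type replicates and did not pass (log2 fold change 3.30, adjusted p = 0.0974). The only leukocyte marker, *CD14*, had values between 8.98 and 15.1. No endothelial or adipocyte marker was in the table. The part of these marker differences in the carrier differences was not tested. In bulk libraries, fewer cells of a type and less RNA per cell cannot be told apart.

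The comparison of edited with wild-type cells asked which carriers differ after loss of the promoter. At an adjusted p under 0.05, 9 of 122 members (7.38%) passed the test, against 7.09% of the 9590 genes tested, so the share was near the background. Of these, 4 rose in edited cells, where 2.89% of all tested genes rose, and 5 fell, where 4.20% of all tested genes fell. The fallen members were *SLC1A3*, *SLC39A11*, *SLC9A7*, *SLC44A2* and *SLC25A28*. The raised members were *SLC5A6*, *SLC19A1*, *SLC12A2* and *SLC36A4*. The test was limma on log2(value + 1), with Benjamini-Hochberg adjustment over all 9590 genes, and a fold change on this scale understates the change of low genes. With each library scaled to the same total, 2 of the members rose (*SLC5A6* and *SLC19A1*) and 5 fell.

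The calls needed both wild-type libraries, and without either of them the calls over all tested genes dropped as well. Leaving out an edited library moved the calls among members and over all tested genes in the same direction. These changes in calls are not particular to the members. The log2 fold changes of the 9 kept their sign with any 1 library left out. They ranged from -3.47 to -2.54 for *SLC1A3* and from 0.87 to 1.12 for *SLC12A2*. At an adjusted p under 0.001, 0 members and 1 of all tested genes passed, while 51 members had an unadjusted p under 0.05 (41.8%, against 32.3% of all tested genes).

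*SLC1A3* had the largest difference of any member. It encodes EAAT1 (also named GLAST), a sodium-coupled carrier of glutamate and aspartate, and lies on chromosome 5 from 36596588 to 36688334 (GRCh38). Its values were 21.6 and 10.9 in edited against 100.3 and 169 in wild-type replicates. The groups did not overlap, and the wild-type mean was 8.28 times the edited mean (16.2 ± 7.61 in edited and 135 ± 48.5 in wild-type cells, SD, n = 2). The log2 fold change was -3.00 (SE 0.39) with an adjusted p of 0.0203 from limma.

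*SLC44A2*, a choline transporter-like protein, had the highest level of the 9 on the table's length-scaled values. Its values were 112 and 103 in edited against 215 and 266 in wild-type replicates, a log2 fold change of -1.15 (SE 0.21, adjusted p = 0.0403 from limma). The relative *SLC44A1*, which also carries choline, had 12.2 and 14.9 in edited against 25.2 and 33.5 in wild-type replicates and missed the threshold (log2 fold change -1.05, adjusted p = 0.0512). In both genes every edited library lay below every wild-type library.

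*SLC39A11* encodes ZIP11, a carrier of the ZIP family of zinc importers. It had 14.8 and 13.1 in edited against 32.4 and 34.4 in wild-type replicates (log2 fold change -1.21, SE 0.18, adjusted p = 0.0251). *SLC25A28* encodes mitoferrin-2, which brings iron into mitochondria, and had 54.6 and 66.8 in edited against 130.5 and 126 in wild-type replicates (log2 fold change -1.07, SE 0.19, adjusted p = 0.0402). *SLC9A7* encodes a sodium or potassium for proton exchanger of the trans-Golgi network, with 7.44 and 8.06 in edited against 17.9 and 20.5 in wild-type replicates (log2 fold change -1.20, SE 0.22, adjusted p = 0.0397). In these genes the replicates of a group lay close together and the groups were well apart.

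*SLC5A6*, the sodium-dependent multivitamin transporter that takes up biotin and pantothenate, had the largest rise past the threshold. Its values were 88.02 and 62.9 in edited against 26.9 and 22.7 in wild-type replicates, so that the edited mean was 3.04 times the wild-type mean (75.5 ± 17.7 in edited and 24.8 ± 2.92 in wild-type cells, SD, n = 2). The log2 fold change was 1.55 (SE 0.23, adjusted p = 0.0251 from limma). *SLC19A1*, the reduced folate carrier, had 25.99 and 21.9 in edited against 10.9 and 7.76 in wild-type replicates (log2 fold change 1.28, SE 0.24, adjusted p = 0.0420). Both genes encode plasma membrane carriers of vitamins, and in neither did the groups overlap.

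*SLC12A2* encodes NKCC1, which carries sodium, potassium and chloride into the cell, and had 21.98 and 24.2 in edited against 12.2 and 10.05 in wild-type replicates (log2 fold change 1.00, SE 0.20, adjusted p = 0.0478). *SLC36A4*, a carrier of proline and tryptophan, had 21.8 and 20.7 in edited against 10.9 and 9.54 in wild-type replicates (log2 fold change 0.99, SE 0.20, adjusted p = 0.0469). These 2 rises lay next to the threshold, and neither passed with equal library totals.

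In GRCh38, the other genes that fell lie on chromosome 19 from 10602455 to 10644557 (*SLC44A2*), chromosome 17 from 72645949 to 73092688 (*SLC39A11*), chromosome 10 from 99610522 to 99659286 (*SLC25A28*) and chromosome X from 46599251 to 46759118 (*SLC9A7*). Those that rose lie on chromosome 2 from 27199587 to 27212787 (*SLC5A6*), chromosome 21 from 45502517 to 45563025 (*SLC19A1*), chromosome 5 from 128083766 to 128189677 (*SLC12A2*) and chromosome 11 from 93144174 to 93197991 (*SLC36A4*). The 9 genes are thus spread over 8 chromosomes, with chromosome 5 holding 1 of each direction.

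**Figure D1:**
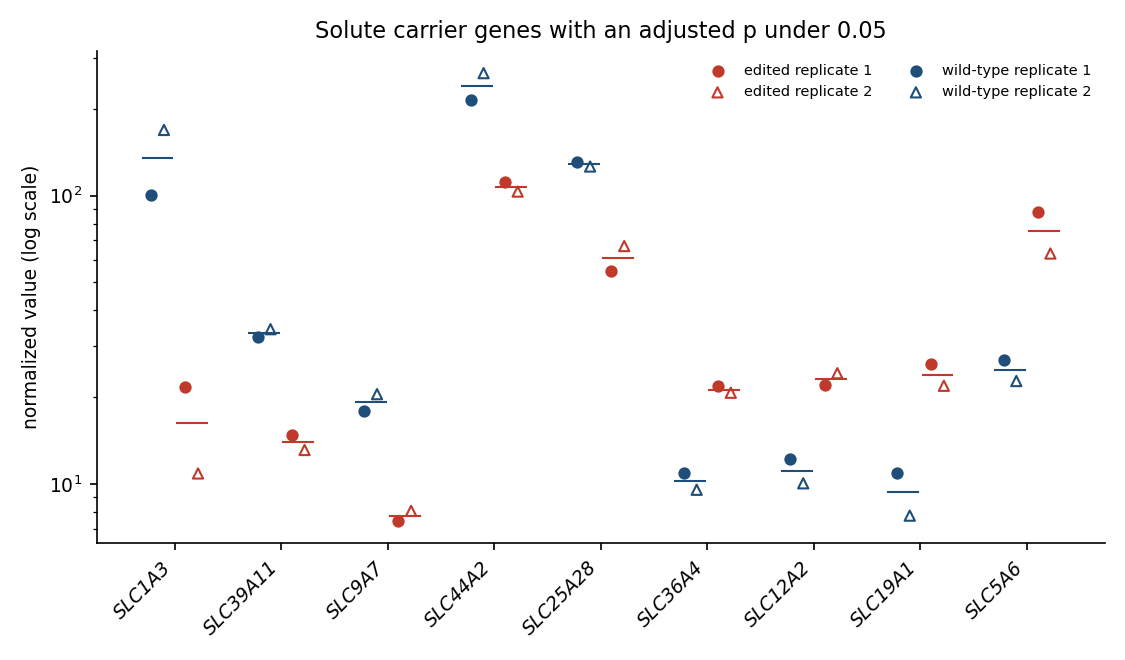
Normalised value (log scale) of the 9 solute carrier genes with an adjusted p under 0.05 in each of the 4 libraries, with edited in red and wild-type in blue, replicate 1 as circles, replicate 2 as triangles and group means as horizontal lines. The groups do not overlap in any of the 9, and *SLC1A3* has the widest gap between them, from 21.6 in the higher edited to 100.3 in the lower wild-type library.

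Promoter sequences from RefSeq (GRCh38.p14) were available for 100 of the 122 members and for 9 of the 9 that passed the test. The 250 bases before each annotated start were searched on both strands for the motifs CAGGTG (an E-box bound by ZEB and SNAIL factors), TGCGCNC and TGCACNC (cores of the metal response element), TGATGCAA (an ATF4 element) and TGACNNNGC (the core of the antioxidant response element). The forms TGCGCNC and TGCACNC differ by G or A in the middle, so that no stretch matches both on 1 strand. The windows below show 1 match of each motif among the genes that passed the test, with the match in capitals, and for *SLC5A6* the bases next to a start without any match. They read 5′ to 3′ in the direction of transcription.
SLC1A3, chr5:36596338-36596405 (+), TGATGCAA: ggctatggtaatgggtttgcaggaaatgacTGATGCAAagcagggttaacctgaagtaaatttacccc
SLC9A7, chrX:46759207-46759272 (-), CAGGTG: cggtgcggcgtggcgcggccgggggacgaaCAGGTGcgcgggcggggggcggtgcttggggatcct
SLC44A2, chr19:10602244-10602310 (+), TGCACNC: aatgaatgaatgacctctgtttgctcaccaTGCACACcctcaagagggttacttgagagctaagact
SLC36A4, chr11:93197514-93197580 (-), TGCGCNC: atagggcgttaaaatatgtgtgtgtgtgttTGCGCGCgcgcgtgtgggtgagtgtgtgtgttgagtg
SLC19A1, chr21:45563140-45563208 (-), TGACNNNGC on the opposite strand: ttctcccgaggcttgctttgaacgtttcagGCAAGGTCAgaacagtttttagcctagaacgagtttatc
SLC5A6, chr2:27212269-27212348 (-), no match: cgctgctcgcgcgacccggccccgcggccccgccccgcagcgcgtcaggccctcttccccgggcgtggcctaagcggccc

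Each motif had a somewhat higher share among the members' promoters than in the whole table, and these differences were not tested. The whole table covers 27305 genes whatever their expression here, while the members are genes with a mean of at least 10. CAGGTG was in 19% of the 153 promoters of members and in 17.5% of the 35116 promoters in the table, and TGCGCNC in 23.5% and 16.8%. TGCACNC was in 11.1% and 9.87%, TGATGCAA in 1.31% and 0.772%, and TGACNNNGC in 15.0% and 10.9%. Of the 8 promoters of genes that fell, each motif was in 1. Of the 8 promoters of genes that rose, TGCGCNC was in 2, TGCACNC and TGACNNNGC were in 1 each, and CAGGTG and TGATGCAA in 0. A match is a stretch of letters and no record of binding.

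The median log2 fold change of the members was 0.17, against 0.09 over all tested genes, and 80 of 122 lay above 0 (from 68 to 81 under the other scalings), as did 5439 of the 9590 tested genes. This tally holds for symbols that passed the filter on the mean. In the fit over all rows, the 71 symbols under the mean of 10 had a median of -0.29 with 47 below 0, and all 193 symbols had a median of 0.08 with 104 above and 89 below 0, against a median of 0.01 over all rows. Both edited libraries lay above both wild-type libraries in 48 members (39.3%, against 38.3% of all tested genes) and below them in 32 (26.2%, against 26.9%). The median size of the change was 0.50 on the log2 scale, against 0.38 over all tested genes. Equal library totals lowered the median of all tested genes by 0.12 on the log2 scale and that of the members to 0.06, and changes are best read against these medians. By class, the median was highest for zinc carriers (0.59), followed by amino acid (0.33), mitochondrial (0.26), nucleotide (0.24), hexose (0.15), other (0.08, or -0.03 with equal library totals) and inorganic ion carriers (0.02). The zinc median was also the highest under equal library totals, quantile and cyclic loess normalisation, while the order of the other classes changed under quantile and cyclic loess normalisation. The classes overlapped widely, and none was tested as a list.

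**Figure D2:**
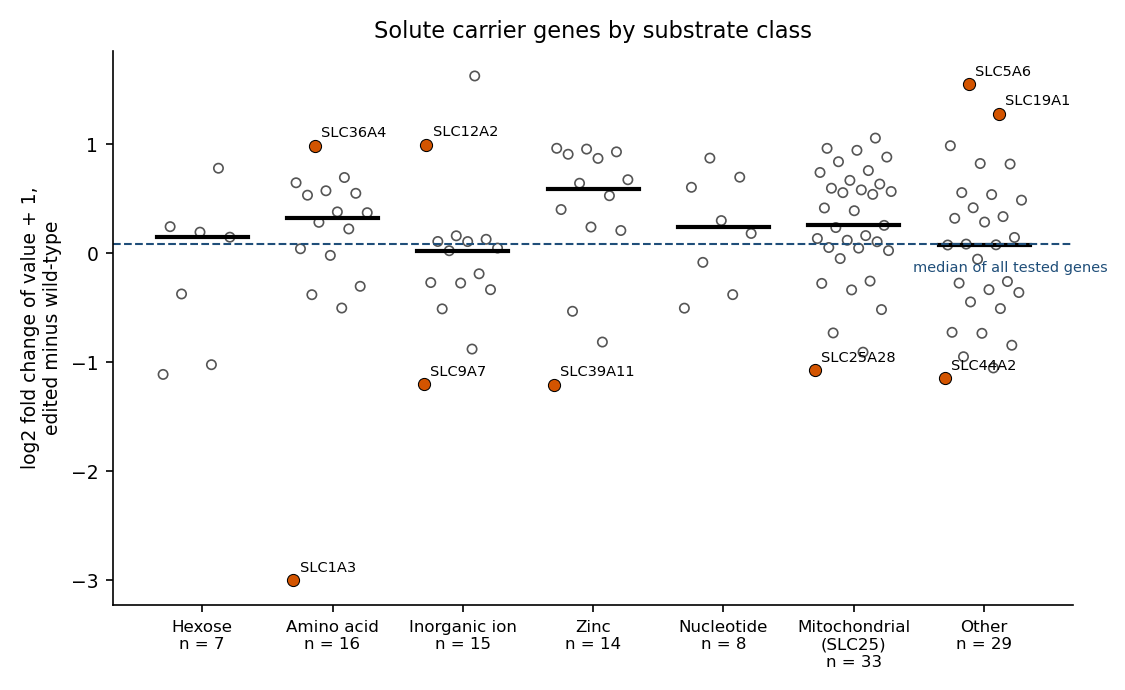
Log2 fold change of value + 1 (edited minus wild-type) of the 122 members by substrate class, with black bars for the class medians, filled points for the 9 members with an adjusted p under 0.05 and a dashed line for the median of all tested genes (0.09). The zinc bar stands highest at 0.59 with 11 of its 14 members above 0, and *SLC1A3* at -3.00 lies far below every other member.

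Among the amino acid carriers, *SLC36A4* rose, *SLC1A3* fell and the other 14 did not pass the test. The share that passed was 12.5%, against 7.09% of all tested genes. In 7 members both edited libraries were above both wild-type libraries (43.8%, against 38.3% of all tested genes), and in 4 they were below them (25%, against 26.9%), both near the background. The highest levels per length were those of the subunits of the large neutral amino acid exchanger, the heavy chain *SLC3A2* (4F2hc, CD98) and the light chain *SLC7A5* (LAT1). *SLC3A2* had 1938 and 1222 in edited against 955 and 1116 in wild-type replicates (log2 fold change 0.58, adjusted p = 0.223). *SLC7A5* had 1069 and 733 in edited against 675 and 684 in wild-type replicates (log2 fold change 0.38, adjusted p = 0.338). In both subunits edited replicate 1 was the highest of the 4 libraries, and edited replicate 2 lay nearer to the wild-type values. *SLC7A6*, another light chain, had 51.00 and 45.5 in edited against 32.3 and 33.6 in wild-type replicates (log2 fold change 0.53, adjusted p = 0.0987).

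The glutamine carriers did not pass the test. *SLC1A5* (ASCT2), an exchanger of neutral amino acids, had 151 and 148 in edited against 218 and 156 in wild-type replicates (log2 fold change -0.30, adjusted p = 0.407). *SLC38A2* (SNAT2), a sodium-coupled carrier of small neutral amino acids, had 259 and 506 in edited against 266 and 187 in wild-type replicates (log2 fold change 0.70, adjusted p = 0.253). Its groups overlapped, since edited replicate 1 was lower than wild-type replicate 1, while edited replicate 2 was the highest library. The taurine carrier *SLC6A6* had 18.4 and 17.8 in edited against 9.49 and 13.2 in wild-type replicates (log2 fold change 0.65, adjusted p = 0.126) and the arginine and lysine carrier *SLC7A1* had 23.1 and 24.1 in edited against 31.6 and 30.4 in wild-type replicates (log2 fold change -0.38, adjusted p = 0.175). In both the groups were apart, and the tests missed the threshold.

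None of the 7 hexose carriers passed the test in limma, while 2 had an unadjusted p under 0.05 (28.6%, against 32.3% of all tested genes). *SLC2A1*, the GLUT1 glucose carrier found in most cells, had 120.2 and 131 in edited against 186 and 398 in wild-type replicates. Both edited libraries were below both wild-type libraries, which differed widely from each other, and the log2 fold change of -1.11 (SE 0.38) had an adjusted p of 0.114. *SLC2A9* (GLUT9), which also carries urate, had 13.7 and 23.8 in edited against 35.05 and 40.7 in wild-type replicates (log2 fold change -1.02, adjusted p = 0.0819). *SLC50A1*, the human SWEET carrier, had 107 and 92.5 in edited against 129 and 129 in wild-type replicates (log2 fold change -0.37, adjusted p = 0.231). *SLC2A5*, the fructose carrier GLUT5, was high in edited replicate 1 alone, with 22.8 and 4.97 in edited against 8.65 and 9.46 in wild-type replicates. The median of the class (0.15) was -0.48 without edited replicate 1.

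Of the 15 inorganic ion carriers, *SLC12A2* rose, *SLC9A7* fell and 13 did not pass. The share that passed was 13.3%, against 7.09% of all tested genes. The class median of 0.02 was below 0 with equal library totals (-0.09), quantile normalisation (-0.14) and cyclic loess normalisation (-0.24), and also with any 1 library left out (-0.19 to -0.0055). The sodium-coupled phosphate carriers lay on opposite sides. *SLC20A1* (PiT-1) had 91.7 and 166 in edited against 48.6 and 31.7 in wild-type replicates, the largest log2 fold change of any member above 0 at 1.63 (SE 0.35), and missed the threshold with an adjusted p of 0.0537. *SLC20A2* (PiT-2) had 65.4 and 81.6 in edited against 110.3 and 98.9 in wild-type replicates (log2 fold change -0.51, adjusted p = 0.152). The groups did not overlap in either gene. The difference between the 2 carriers was not tested.

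Beside *SLC12A2*, the SLC12 family includes potassium chloride carriers that work in the outward direction. Of these, *SLC12A4* (KCC1), the best expressed of the family, had 119.8 and 164 in edited against 176 and 163 in wild-type replicates (log2 fold change -0.27, adjusted p = 0.447). Its groups overlapped. The bicarbonate carriers *SLC4A2* (AE2) and *SLC4A7* (NBCn1) had log2 fold changes of 0.05 and 0.11, both at or below 0 with equal library totals. The magnesium carrier *SLC41A3* had 123 and 129.6 in edited against 149.7 and 155 in wild-type replicates (log2 fold change -0.27, adjusted p = 0.353).

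Of the 14 zinc carriers, 1 fell (*SLC39A11*) and 13 did not pass the test. The share that passed was 7.14%, against 7.09% of all tested genes. An unadjusted p under 0.05 in limma was found for 8 (57.1%, against 32.3% of all tested genes). Under each scaling, 11 lay above 0, and the class median was 0.50 above that of all tested genes, with values from 0.50 to 0.56 under the other scalings. The 10 importers of the SLC39 (ZIP) family had a median of 0.66. The 4 members among the exporters of the SLC30 (ZnT) family all lay above 0, under each scaling, with a median of 0.47. Exporters under the mean of 10 lay on both sides in the fit over all rows, *SLC30A4* at -0.45 and *SLC30A7* at 0.36. Both edited libraries were above both wild-type libraries in 7 of the 14 (50%, against 38.3% of all tested genes) and below them in 3 (21.4%, against 26.9%).

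The exporter with the largest difference was *SLC30A5* (ZnT5), which loads zinc into the secretory pathway, with 138 and 115 in edited against 72.7 and 56.5 in wild-type replicates (log2 fold change 0.97, SE 0.22, adjusted p = 0.0583). Its partner in a heterodimer, *SLC30A6* (ZnT6), had 13.8 and 12.3 in edited against 11.5 and 10.7 in wild-type replicates (log2 fold change 0.21, adjusted p = 0.530). *SLC30A1* (ZnT1), which exports zinc through the plasma membrane, had 26.4 and 15.9 in edited against 12.02 and 16.1 in wild-type replicates (log2 fold change 0.53, adjusted p = 0.269). The groups were apart in the first pair and overlapped in *SLC30A1*.

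Among the importers, *SLC39A4* (ZIP4), the carrier of intestinal zinc uptake, had 129.8 and 94.97 in edited against 58.5 and 58.7 in wild-type replicates (log2 fold change 0.91, adjusted p = 0.0635). *SLC39A3* (ZIP3) had 60.1 and 40.4 in edited against 27.4 and 25.5 in wild-type replicates (log2 fold change 0.87, adjusted p = 0.0766), and *SLC39A14* (ZIP14), which also carries iron and manganese, had 34.8 and 49.5 in edited against 26.7 and 16.3 in wild-type replicates (log2 fold change 0.96, adjusted p = 0.0966). Each of these had both edited libraries above both wild-type libraries and missed the threshold. *SLC39A6* (ZIP6), which estrogen induces in breast cells, lay the other way with 48.6 and 87.2 in edited against 128 and 104 in wild-type replicates (log2 fold change -0.81, adjusted p = 0.145). Its partner *SLC39A10* (ZIP10) had 27.1 and 62.9 in edited against 27.8 and 16.2 in wild-type replicates and *SLC39A8* (ZIP8) had 9.78 and 50.6 in edited against 15.4 and 12.9 in wild-type replicates. In both of these edited replicate 2 was far above the other 3 libraries, and edited replicate 1 lay within or below the wild-type values.

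Zinc buffering genes were looked at beside the carriers. Of the 4 that were tested, 0 passed in limma, and 1 had an unadjusted p under 0.05, as did 32.3% of all tested genes. *MT2A*, an abundant metallothionein, had 1964 and 7643 in edited against 3275 and 1057 in wild-type replicates, so that its groups overlapped and edited replicate 2 was the highest library. *MT1E* had 759 and 1052 in edited against 904 and 483 in wild-type replicates, and its groups overlapped as well. *MT1F* lay lower in edited cells, with 4.20 and 10.5 against 25.9 and 18.2 (log2 fold change -1.55, adjusted p = 0.0796). *MT1G*, under the mean of 10, lay higher, with 2.41 and 2.89 against 0.310 and 0.629 (log2 fold change 1.32, adjusted p = 0.0577 in the fit over all rows). The groups of these metallothioneins were apart, in opposite directions, and neither passed the test.

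**Figure D3:**
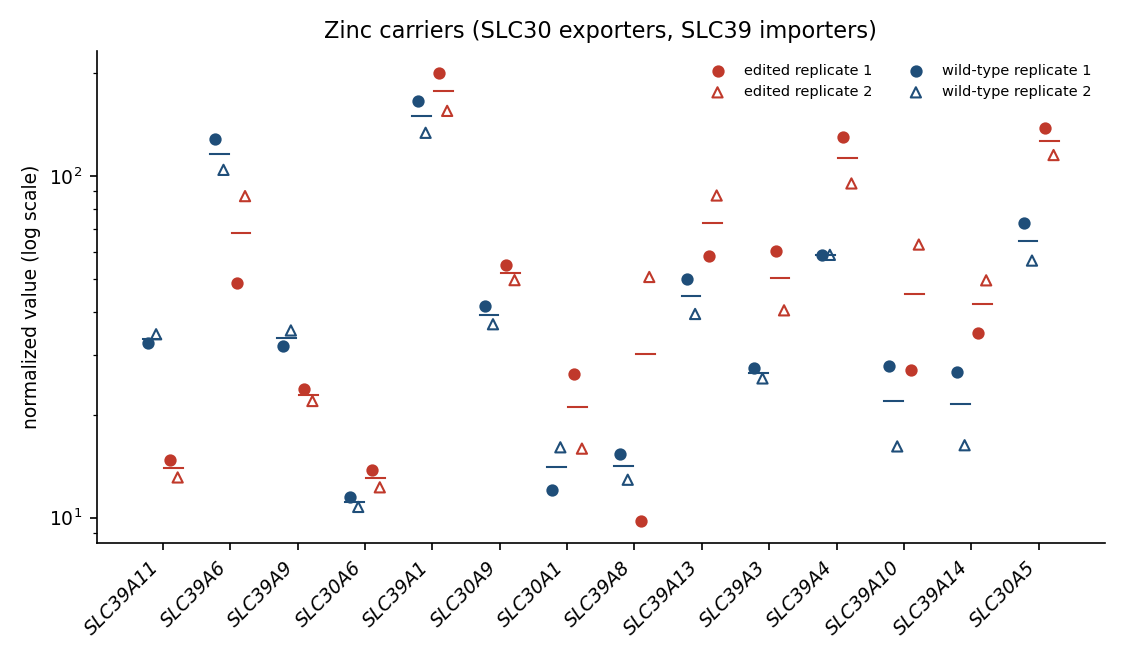
Normalised value (log scale) of the 14 zinc carriers in each of the 4 libraries, ordered by log2 fold change, with edited in red, wild-type in blue, circles for replicate 1, triangles for replicate 2 and horizontal lines for group means. Edited libraries lie above wild-type libraries in 7 genes, below them in 3 (*SLC39A11*, *SLC39A6* and *SLC39A9*), and edited replicate 2 stands alone in *SLC39A8* at 50.6.

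Of the 8 carriers of nucleosides, nucleobases and nucleotide sugars, limma called 0, and 5 lay above 0. In limma 3 had an unadjusted p under 0.05 (37.5%, against 32.3% of all tested genes). *SLC43A3*, a purine nucleobase carrier, had 57.5 and 41.3 in edited against 33.5 and 20.3 in wild-type replicates (log2 fold change 0.88, adjusted p = 0.113). *SLC35A4*, the best expressed of the class, had 110.5 and 80.05 in edited against 56.1 and 58.97 in wild-type replicates (log2 fold change 0.70, adjusted p = 0.0988), and *SLC29A1* (ENT1), the equilibrative nucleoside carrier of the plasma membrane, had 41.2 and 44.98 in edited against 39.2 and 30.8 in wild-type replicates (log2 fold change 0.30, adjusted p = 0.321). The edited libraries were the higher ones in these 3 genes. The Golgi carriers *SLC35A1* for CMP-sialic acid and *SLC35A2* for UDP-galactose had log2 fold changes of 0.18 and -0.08, and their groups overlapped.

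Of the 33 mitochondrial carriers, 1 (*SLC25A28*) fell and 32 did not pass. The share that passed was 3.03%, against 7.09% of all tested genes. In limma 15 had an unadjusted p under 0.05 (45.5%, against 32.3% of all tested genes). In this class 25 lay above 0 (from 21 to 24 under the other scalings). Both edited libraries were above both wild-type libraries in 16 (48.5%, against 38.3% of all tested genes) and below them in 5 (15.2%, against 26.9%). The sums over the class were 5210 and 5021 in edited and 5063 and 3738 in wild-type cells, so wild-type replicate 2 was the low library. Without it, the class median of 0.26 was 0.13.

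The abundant carriers that serve oxidative phosphorylation did not pass the test. *SLC25A5* (ANT2), which exchanges ADP for ATP, was the highest member of all with 1711 and 1513 in edited against 1840.4 and 1213 in wild-type replicates (log2 fold change 0.11, adjusted p = 0.812). *SLC25A6* (ANT3) had 846 and 1165 in edited against 826 and 563 in wild-type replicates (log2 fold change 0.54, adjusted p = 0.251), and the phosphate carrier *SLC25A3* had 1098 and 957 in edited against 995 and 739 in wild-type replicates (log2 fold change 0.26, adjusted p = 0.493). The groups overlapped in *SLC25A5* and *SLC25A3*, and wild-type replicate 2 was the lowest library in all 3.

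The mitochondrial carriers above 0 that came nearest to the threshold were *SLC25A22*, *SLC25A15* and *SLC25A20*. *SLC25A22*, a glutamate carrier, had 52.2 and 37.02 in edited against 22.5 and 22.1 in wild-type replicates (log2 fold change 0.95, adjusted p = 0.0583), and *SLC25A15*, which exchanges ornithine for citrulline in the urea cycle, had 24.8 and 18.9 in edited against 11.7 and 8.30 in wild-type replicates (log2 fold change 1.06, adjusted p = 0.0657). The carnitine-acylcarnitine carrier *SLC25A20* had 27.9 and 28.9 in edited against 18.7 and 12.7 in wild-type replicates (log2 fold change 0.84, adjusted p = 0.0794). In each of these 3 the groups were apart, and none passed the test.

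*SLC25A1*, the citrate carrier that supplies cytosolic acetyl-CoA, had 153 and 101 in edited against 75.03 and 70.7 in wild-type replicates (log2 fold change 0.76, adjusted p = 0.108), and the dicarboxylate carrier *SLC25A10* had 69.1 and 39.2 in edited against 31.6 and 21.7 in wild-type replicates (log2 fold change 0.96, adjusted p = 0.113). Edited replicate 1 was the highest library in both. Below 0, *SLC25A40* had 16.2 and 18.2 in edited against 31.8 and 26.7 in wild-type replicates (log2 fold change -0.73, adjusted p = 0.0720). *SLC25A37* encodes mitoferrin-1, the other mitochondrial iron importer beside *SLC25A28*, and had 69.7 and 171 in edited against 162 and 105 in wild-type replicates (log2 fold change -0.25, adjusted p = 0.735). Its groups overlapped fully, with edited replicate 1 the lowest and edited replicate 2 the highest library.

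**Figure D4:**
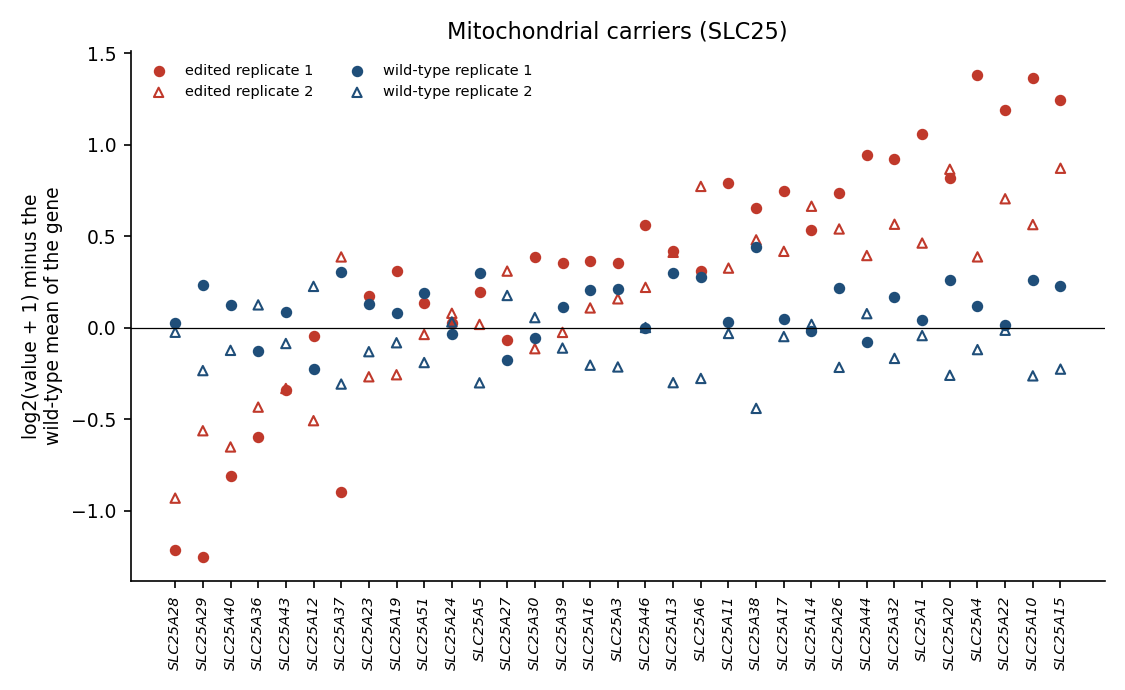
The 33 SLC25 carriers in each of the 4 libraries as log2(value + 1) less the wild-type mean of the gene, ordered by log2 fold change, with edited in red, wild-type in blue, circles for replicate 1 and triangles for replicate 2. Edited points lie above 0 for most genes to the right, and at the far left *SLC25A28* is the only one with an adjusted p under 0.05.

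Among the 29 members of other families, 2 rose (*SLC5A6* and *SLC19A1*), 1 fell (*SLC44A2*) and 26 did not pass. The share that passed was 10.3%, against 7.09% of all tested genes. Both edited libraries were above both wild-type libraries in 10 and below them in 10 (34.5% each, against 38.3% and 26.9% of all tested genes). The monocarboxylate carriers export and import lactate with a proton. *SLC16A3* (MCT4), the exporter of glycolytic cells, had 247 and 359 in edited against 182 and 123 in wild-type replicates (log2 fold change 0.99, adjusted p = 0.0921), and *SLC16A1* (MCT1) had 53.1 and 68.1 in edited against 57.3 and 55.9 in wild-type replicates (log2 fold change 0.09, adjusted p = 0.794). The groups were apart in *SLC16A3* and overlapped in *SLC16A1*. Their chaperone *BSG* had 1872 and 2063 in edited against 1685 and 1563 in wild-type replicates (log2 fold change 0.28, adjusted p = 0.380).

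Other vitamin carriers than those that passed lay on both sides of 0. *SLC52A2*, a riboflavin carrier, had 175 and 154 in edited against 102 and 83.6 in wild-type replicates (log2 fold change 0.82, adjusted p = 0.0701). *SLC46A1*, the proton-coupled folate carrier, had 19.4 and 20.5 in edited against 31.8 and 35.6 in wild-type replicates (log2 fold change -0.72, adjusted p = 0.0617), on the opposite side to the reduced folate carrier *SLC19A1*. The difference between these 2 folate carriers was not tested. The creatine carrier *SLC6A8* had 202 and 194 in edited against 155 and 161 in wild-type replicates (log2 fold change 0.32, adjusted p = 0.282). The fatty acid carriers *SLC27A1* and *SLC27A5* had log2 fold changes of -0.73 and 0.83 with adjusted p-values of 0.0728 and 0.0978, and the copper carriers *SLC31A2* and *SLC31A1* of -0.95 and 0.08 with 0.0836 and 0.820. None of these 4 passed the test.

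A few genes held much of the members' summed level per length. *SLC25A5*, *SLC3A2*, *SLC25A3*, *SLC25A6* and *SLC7A5* together made up between 42.0% and 51.0% of the members' summed values in a library. Replicates of the edited group differed by a median of 0.35 on the log2 scale over the members, against 0.23 over all tested genes, while those of the wild-type group differed by 0.23 and 0.24. Between the edited replicates, 5 of the 122 members differed by more than 1 on the log2 scale, as did 453 of the 9590 tested genes. Between the wild-type replicates, 3 members and 298 tested genes did so. The 5 members were *SLC39A8* (2.26), *SLC2A5* (1.99), *SLC46A3* (1.81), *SLC25A37* (1.28) and *SLC39A10* (1.19). These 5 were named after their values were seen, and none passed the test.

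The 71 symbols under the mean of 10 were tested in a fit over all 16811 rows, where 4.73% of rows passed. Of the 71, 3 passed (4.23%), and all fell, as did 571 of the 795 rows that passed in this fit. *SLC52A3*, another riboflavin carrier, had 0.472 and 0.843 in edited against 11.8 and 17.1 in wild-type replicates (log2 fold change -3.21, SE 0.28, adjusted p = 0.0149 from limma). *SLC9A9*, a sodium proton exchanger of endosomes, had 1.48 and 1.70 against 10.4 and 25.4 (log2 fold change -2.74, adjusted p = 0.0395), and *SLC44A3*, of the choline transporter-like family, had 0.753 and 0.413 against 3.68 and 3.76 (log2 fold change -1.58, adjusted p = 0.0419). The groups were apart in all 3, although *SLC44A3* was low in every library (from 0.413 to 3.76). *SLC7A11* (xCT), which exchanges cystine for glutamate, had 3.78 and 6.35 in edited and 0.876 and 1.06 in wild-type cells, and missed the threshold (log2 fold change 1.59, adjusted p = 0.0521). The sulfate carrier *SLC26A2* had 10.7 and 8.87 against 3.08 and 4.22 (log2 fold change 1.22, adjusted p = 0.0564). *SLC2A3* and *SLC34A2* were not analysed here.

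Partners of carriers and carriers with other symbols were described from lists. Over all tested genes, 2.89% rose and 4.20% fell. Of 5 partners, *ATP1B1*, a beta subunit of the sodium pump whose gradient drives many carriers, fell, with 21.5 and 25.5 in edited against 84.6 and 163 in wild-type replicates (log2 fold change -2.28, SE 0.33, adjusted p = 0.0251 from limma). Another beta subunit, *ATP1B3*, had 569 and 490 against 492 and 482, so that its groups overlapped. Of 15 tested carriers named outside the SLC symbols, *SLCO4A1*, an organic anion carrier, rose, with 52.3 and 45.2 in edited against 8.23 and 2.11 in wild-type replicates (log2 fold change 3.21, SE 0.51, adjusted p = 0.0310). Of the 15, 12 lay above 0, with a median of 0.59, where 5439 of the 9590 tested genes lay above 0 with a median of 0.09. This list was not tested as a set. *MPC1*, of the mitochondrial pyruvate carrier, had 81.8 and 41.4 against 26.3 and 16.8 (log2 fold change 1.43, adjusted p = 0.0751), and its partner *MPC2* had 188 and 109 against 114 and 124.

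The position of all 122 members was found in RefSeq (GRCh38.p14). On chromosome 14, the 312 tested genes had a median of -0.46 on the log2 scale, which fell by 0.54 from that of all tested genes, and the 3 members there were all below 0 (*SLC39A9* -0.53, *SLC38A6* -0.50 and *SLC25A29* -0.91). On chromosome 5, the median of the 417 tested genes was 0.36, and 6 of 8 members lay above 0. *SLC12A2* (1.00) and *SLC30A5* (0.97) lay above this median and *SLC1A3* (-3.00) far below it. On chromosome 18 the median was -0.03, and the only member there (*SLC39A6*) lay at -0.81. On the remaining chromosomes with a median below 0 the members were divided. The tested genes of chromosomes 7, 9 and 13 had medians of -0.19, -0.18 and -0.27, while 2 of 5, 5 of 7 and 2 of 4 members there lay above 0. The part of these chromosome-wide differences in the members' values was not tested.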

How the data were processed

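Poly(A)-selected RNA from 2 edited and 2 wild-type libraries was prepared with TruSeq kits and read as single ends of 75 bases. The authors deposited 1 normalized expression signal per gene and library. The submitters' processing notes name Salmon, HISAT2 and hg38 without roles or versions, and the normalization is not given in the sources used here. The values fell with transcript length across genes (Spearman's rho -0.26 over 11889 genes with a protein-coding length in GENCODE), whereas read numbers would be expected to grow with it, so they were taken as scaled for length. They are not counts: among the 2000 smallest values above 0 in a library, 1845 to 1877 differed, so no step worth 1 read was seen and no counting interval is given.

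Groups and replicate numbers came from the labels. The 9590 genes whose mean reached 10 entered a linear model of log2(value + 1) without covariates in limma (version 3.58.1, R 4.3.3), with moderated variances that follow the mean (eBayes, trend) and Benjamini-Hochberg adjustment over these genes. Genes passed at an adjusted p under 0.05. The study's own RNA-seq threshold, an adjusted p under 0.001, was an alternative. At this threshold the paper reports many more genes than passed here. Its text does not name its RNA-seq model, so the counts are not alike. With 2 libraries a group, the smallest p that an exact permutation test can reach is 0.333, and the p-values of limma measure only the spread between these libraries. The members and lists were chosen with earlier results of these data known. Named by rule were up to 5 increases and 5 decreases past the threshold per class, the 3 highest members per class and a fixed list of carriers, with the same limits of 5 for symbols under the mean. Other members were chosen after their values were seen. Some genes of these lists are not reported here. Classes follow the family of the carrier, so that *SLC25A17*, a peroxisomal carrier, counts as mitochondrial. Positions and promoters came from RefSeq on GRCh38.p14, which placed 8952 of 9590 tested genes (93.3%). The alternatives changed the pseudocount, filter, scaling, variance trend, threshold and replicate block, and left out each library in turn. Scripts were tested on simulated data. Python 3.11.15, numpy 2.4.6, pandas 2.3.3 and matplotlib 3.10.9 were used.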

Additional observations from a re-analysis of the deposited data

How the results depend on the processing

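With 2 libraries a group, the counts rest on few degrees of freedom, and a left-out library leaves 1 sample that is assumed to vary like the other group. The cause of the changes below was not tested unless an alternative itself removes genes. The 9 calls among members were kept by a pseudocount of 0.1 or 5, cyclic loess normalisation and no variance trend. Other settings called 6 (no filter), 7 (equal library totals) and 8 (quantile normalisation) of these 9. Over all genes, these settings called 795 of 16811, 734 of 9590 and 736 of 9590, against 680 of 9590 in the main fit. With a mean of at least 50, 4192 genes were left, with 40 members and 4 of the 9 among them. In that fit limma called 7 of the 40 members and 419 of the 4192 genes. The members called included 1 amino acid, 1 ion and 2 zinc carriers. No filter and equal library totals called 1 amino acid and 1 ion carrier each, and quantile normalisation 1 ion carrier. At an adjusted p under 0.001, 1 of all genes passed and 0 members, in every class (51 members had an unadjusted p under 0.05).

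Same-numbered libraries did not deviate together (correlation -0.14 over 9590 genes). With 2 libraries a group, this value cannot decide whether the replicate numbers pair them. A fit with the replicate block called 133 of all genes and 0 members, in every class (45 members had an unadjusted p under 0.05). Pairing the numbers crosswise, an alternative chosen after seeing the data, called 1002 of the 9590 genes and 16 members. Of these members 3 were zinc, 3 mitochondrial and 5 other carriers.

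Leaving out 1 library gave from 4 to 1431 calls over all genes and from 0 to 25 among members. By class the range was 0 to 2 for hexose, 0 to 1 for amino acid, 0 to 3 for ion, 0 to 5 for zinc, 0 to 7 for mitochondrial and 0 to 7 for other carriers.

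The median log2 fold change of all members was 0.057 with equal library totals, which put zinc at 0.47 and ion at -0.088. Ion was at -0.14 with quantile and -0.24 with cyclic loess normalisation. With a mean of at least 50 the medians were -0.74 for hexose, -0.27 for ion, 0.68 for zinc, 0.70 for nucleotide and 0.37 for other carriers. With 1 library left out the median ranged from -0.48 to 0.17 for hexose, from 0.12 to 0.36 for amino acid, from -0.19 to -0.0055 for ion and from 0.41 to 0.63 for zinc carriers. For the named genes, 469 single values under an alternative stayed on their side of the threshold, 41 lost the call, 10 gained it and 0 reversed a called direction. Only members called in the main fit could lose a call, and the 469 also count named genes that it did not call. The 469 are therefore no measure of how stable the calls were. Apart from the crosswise pairing, called members kept the call in between 5 of 12 alternatives (*SLC12A2* and *SLC36A4*) and 10 of 13 (*SLC1A3* and *SLC5A6*).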
